A study of Mus musculus with 23 samples.

Results

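The 10 genes described here encode the transcription factor NRF2, its cytosolic inhibitor KEAP1 and 8 enzymes of antioxidant defence: Nfe2l2, Keap1, Hmox1, Gclc, Gclm, Txnrd1, Srxn1, Sod2, Sod3 and Gpx2. They were taken by gene symbol from the 35322 genes listed in the RNA-Seq table of mouse lung, and all 10 passed the filter on low values that left 16795 genes for testing. The study asked whether particulate exposure of the mother alters the lung response of her adult progeny to ovalbumin (OVA), an egg protein used to induce allergic airways disease in sensitised mice.

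All 23 libraries came from lung of 13-week-old BALB/c offspring described as female. Sham offspring (n = 7) had dams given saline and were themselves challenged with vehicle, PM offspring (n = 7) had dams given fine particulate matter (PM2.5) and received vehicle, Sham-OVA offspring (n = 5) had saline dams and received OVA, and PM-OVA offspring (n = 4) had PM2.5 dams and received OVA. The particles were given to the dams, through the nose, before mating and through gestation and weaning, and the offspring were not exposed directly. The vehicle of the challenge is PBS in the sample labels and saline in the study's methods, and the tissue is labelled Lung (RML). Every lung was homogenised after a methacholine lung function test, so that test is shared by all 4 groups. The labels do not say which offspring shared a dam, so p-values measure the spread between these animals.

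NRF2 is made continuously and is held at a low level by KEAP1, which presents it for ubiquitination and destruction. Oxidants and electrophiles modify cysteines of KEAP1, NRF2 then escapes destruction, enters the nucleus, pairs with a small MAF protein and binds the antioxidant response element (ARE) near the genes of glutathione synthesis, the thioredoxin system and haem breakdown. Much of NRF2 activity is set at the level of the protein, which RNA-Seq does not measure. In the lung, this pathway is best known for defence of the airway epithelium and macrophages against inhaled oxidants.

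Sequences around the core of the ARE, the element that NRF2 is known to bind, are shown for every member whose promoter window held it. The core TGACNNNGC was searched on both strands of RefSeq promoter windows (GRCm38.p6) that ran from 250 bases before to 50 bases after each start site. Of the 10 genes, 7 had such a window and 4 of these held the core, with Txnrd1 matching in 1 of its 3 windows. The windows of Keap1, Sod2 and Gpx2 did not contain these letters, and Hmox1, Gclc and Sod3 had no entry. Of all 32851 promoter windows, 12.4% held the core, so a match is a description of the sequence and not a binding site. In the following 29-base stretches, each read 5′ to 3′ on the minus strand, the capitals mark the core with 10 bases on either side. Counted from the start site, the core lay at position -240 in Nfe2l2, -134 in Gclm, -92 in the Txnrd1 window in question and 29 in Srxn1, and it was on the strand opposite to the gene in all but Nfe2l2.
Nfe2l2, chr2:75704885-75704913: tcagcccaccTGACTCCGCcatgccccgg
Gclm, chr3:122245413-122245441: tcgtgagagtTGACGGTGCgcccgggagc
Txnrd1, chr10:82859104-82859132: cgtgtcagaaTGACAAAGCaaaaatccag
Srxn1, chr2:152105542-152105570: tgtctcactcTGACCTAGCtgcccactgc

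The AP-1 motif TGACTCA, which resembles the core, was in 5.2% of all windows and overlapped none of these 4 matches. Gclm is given with the whole stretch of 250 bases before its start site, since it is the member whose level fell furthest after OVA challenge (chr3:122245307-122245556, plus strand, GRCm38.p6). The capitals are the same core as above, here read on the strand of the gene.
Gclm upstream: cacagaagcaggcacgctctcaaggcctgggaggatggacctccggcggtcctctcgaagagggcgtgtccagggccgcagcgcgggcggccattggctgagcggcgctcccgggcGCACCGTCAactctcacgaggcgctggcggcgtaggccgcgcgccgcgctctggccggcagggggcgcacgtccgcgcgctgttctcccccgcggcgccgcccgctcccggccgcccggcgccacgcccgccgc

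Values are reads per 1000000 mapped reads (RPM), and several features of the libraries bear on them. Reads on genes ran from 13089691 to 17393579 in the 14 saline libraries and from 2298645 to 12355561 in the 9 OVA libraries. The 3 shallowest libraries were replicate 3 of Sham-OVA and replicates 3 and 4 of PM-OVA, with at most 5922469 reads on genes against at least 10345173 in the other 6 OVA libraries. After OVA the median log2 fold change of all genes tested was -0.48 in Sham and -0.43 in PM offspring, so differences were also read against that shift. Sham replicate 1 held Xist at 0.289 RPM, against 174 or more in the other 22 libraries, and the Y-linked Eif2s3y at 54.0 RPM against 0, which goes against its description as female, and leaving it out changed no call of a member. Markers of alveolar type 1, alveolar type 2 and capillary endothelial cells were detected in all groups, and none of the 8 fixed for each was at 0. After OVA 6 of the 8 type 1 markers were called lower in each cohort, and their summed level had a median of 6686 RPM in Sham and 4905 in Sham-OVA, and of 7225 in PM and 4989 in PM-OVA lungs. Of the type 2 markers 2 were higher and 3 lower in each cohort, while the median of their sum was 17650 RPM in Sham and 32890 in Sham-OVA, and 18280 in PM and 35850 in PM-OVA lungs. Sftpc alone gave the largest part of that sum, with means of 10060 RPM in Sham and 22200 in Sham-OVA, and 10530 in PM and 23550 in PM-OVA lungs. Of the capillary markers 2 were higher and 4 lower in each cohort (median sums 5299 RPM without and 3360 with OVA in Sham, 5939 and 3854 in PM offspring), and of the 8 airway secretory markers 5 were higher and 1 lower in each (median sums 21750 and 11980 RPM in Sham, 17340 and 24720 in PM offspring). The secretory sum was mostly Scgb1a1, with means of 21910 RPM in Sham and 13100 in Sham-OVA, and 17690 in PM and 20610 in PM-OVA lungs. The part of these shifts in the changes of the 10 genes was not tested.

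After OVA challenge the mRNA of NRF2 itself and of 3 genes commonly assigned to it was lower, and that of mitochondrial superoxide dismutase was higher, in the offspring of both kinds of dam. In Sham offspring, Nfe2l2, Gclm, Txnrd1 and Srxn1 were lower and Hmox1 and Sod2 were higher (adjusted p below 0.05, limma with Benjamini-Hochberg adjustment over all genes). In PM offspring the same 4 genes were lower and Sod2 was higher. The Srxn1 call there was lost after median-of-ratios scaling (-0.16, adjusted p = 0.365 from limma) and without the 3 shallowest libraries (-0.21, adjusted p = 0.341). Keap1, Gclc, Sod3 and Gpx2 did not pass in either cohort. Against these counts, 20.6% of all genes tested were called higher and 47.5% lower in Sham offspring, and 20.1% higher and 45.2% lower in PM offspring, so 4 of 10 called lower is close to the background. The split moved with the scaling of the libraries: median-of-ratios scaling called 4903 genes higher and 6407 lower in Sham offspring in place of 3453 and 7978, and 4862 and 6003 in PM offspring in place of 3379 and 7589. The study's own threshold for differential expression was stricter, an adjusted p of 0.000001 together with a log2 change of more than 1 in size. The study applied it to DESeq2 results, and lists Sod2 with the epithelial genes called in both cohorts. At that threshold limma called 0 of the 10 genes in either cohort, where 4.51% of all genes passed for Sham and 0.286% for PM offspring. The unadjusted p was under 0.05 for 7 members in the first and 6 in the second. DESeq2 on the recovered reads placed Gclm, Hmox1 and Sod2 past that threshold in Sham and Sod2 in PM offspring, where 28.7% and 16.8% of all genes passed, so these counts are close to the background. edgeR placed 0 members past it in either cohort, with 8.26% and 0.25% of all genes.

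**Figure D1:**
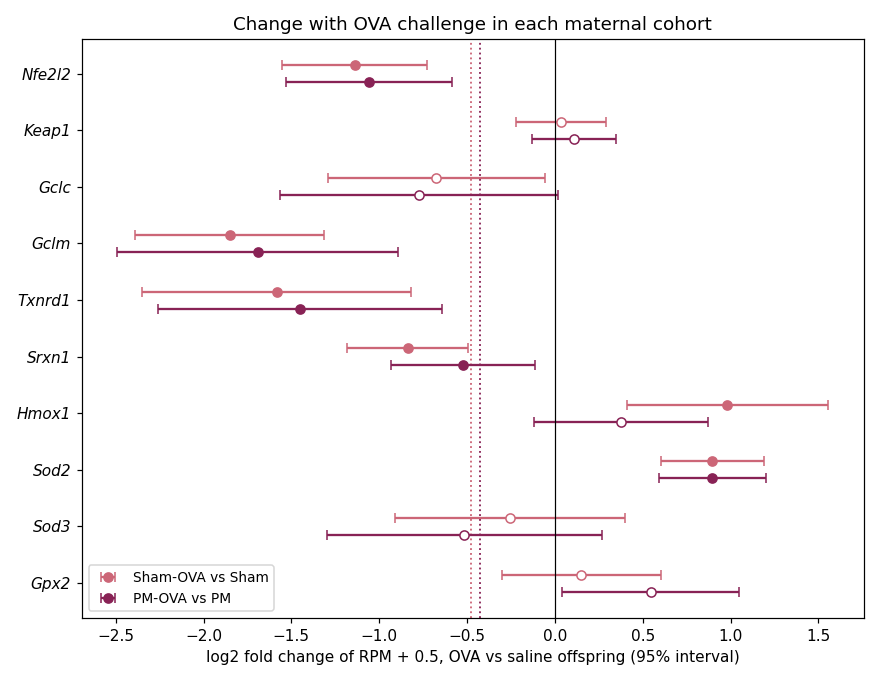
Log2 fold change of RPM + 0.5 after OVA challenge for the 10 genes in Sham (light red) and PM (dark red) offspring, with 95% intervals. Filled points passed an adjusted p of 0.05 and the dotted lines are the medians of all genes tested, -0.48 and -0.43. Gclm lies furthest to the left in both cohorts, and Keap1 lies close to 0.

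Nfe2l2 (chromosome 2, 75675513 to 75704641, minus strand, GRCm38, 6 merged exons) encodes NRF2. Its level in Sham lungs was 154 RPM at the lowest, 178 at the median and 188 at the highest, and in PM lungs 154, 181 and 196. It was 102, 73.1, 42.3, 97.5 and 99.8 RPM in Sham-OVA replicates 1 to 5, and 125, 123, 64.4 and 53.6 in PM-OVA replicates 1 to 4. All 9 OVA libraries lay below all 14 saline libraries. The log2 fold change was -1.14 ± 0.19 (SE; adjusted p = 0.000127) in Sham and -1.06 ± 0.22 (adjusted p = 0.00119) in PM offspring, that is 0.454 and 0.48 of the saline level. Groups that did not overlap in this direction were found for 35% of all genes in Sham and 28.6% in PM offspring. A lower log2 fold change was seen for 26.2% of all genes in Sham and 26.3% in PM offspring.

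Keap1 (chromosome 9, 21229730 to 21239361, minus strand) encodes the sensor that marks NRF2 for destruction. Its level spanned 69.0 to 91.4 RPM in Sham and 70.0 to 89.0 in Sham-OVA lungs. It spanned 75.2 to 88.7 RPM in PM and 73.1 to 94.4 in PM-OVA lungs, so all 4 groups overlapped. The log2 fold change after OVA was 0.03 (95% interval -0.22 to 0.29) in Sham and 0.11 (-0.13 to 0.35) in PM offspring. Relative to the median of all genes this was 0.51 and 0.54 higher, and scaling the libraries by median-of-ratios gave 0.40 (adjusted p = 0.0141) and 0.47 (adjusted p = 0.0212), both called higher. Keap1 shares 510 exon bases with the antisense gene Gm16754, and whether reads were counted by strand is not given in the sources used here.

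**Figure D2:**
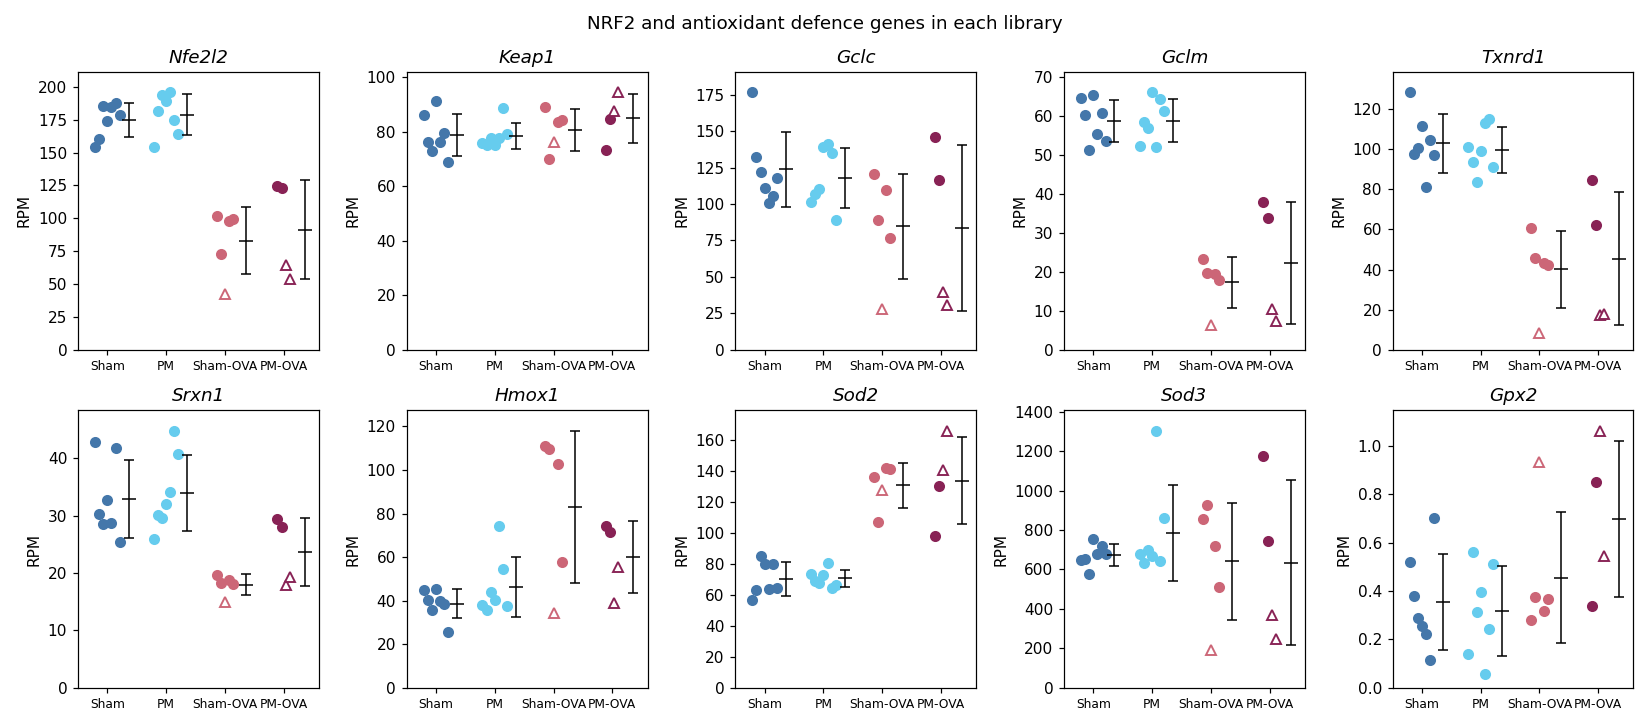
RPM of each of the 10 genes in every library, by group, on linear axes that start at 0. Each point is 1 animal, bars are the mean ± SD and open triangles are the 3 shallowest libraries. Nfe2l2, Gclm and Sod2 separate the OVA from the saline libraries in both cohorts, and the open triangles lie lowest among the OVA libraries for Nfe2l2, Gclc, Gclm, Txnrd1, Hmox1 and Sod3.

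Glutathione synthesis starts with glutamate-cysteine ligase, a pair of a catalytic subunit (Gclc) and a modifier subunit (Gclm) that raises its efficiency. Gclm (chromosome 3, 122245557 to 122270732, plus strand) was 51.3 RPM at the lowest, 60.4 at the median and 65.5 at the highest in Sham, and 52.0, 58.5 and 66.1 in PM lungs. After OVA it was 23.3, 19.6, 6.21, 19.4 and 18.0 RPM in Sham-OVA replicates 1 to 5, and in PM-OVA replicates 1 to 4 it was 38.0, 33.7, 10.5 and 7.26. The OVA and saline libraries did not overlap, and the 2 deeper PM-OVA libraries were above all Sham-OVA libraries. Gclm fell by 1.85 ± 0.25 on the log2 scale in Sham (adjusted p = 1.75e-05) and by 1.69 ± 0.37 in PM offspring (adjusted p = 0.00169), to 0.277 and 0.31 of the saline level. Only 9.6% of all genes in Sham and 10.9% in PM offspring had a lower log2 fold change. Gclm shares 296 exon bases with the antisense gene Gm17494 and 244 with the pseudogene Gm6061, so its reads may not be its own alone.

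Gclc (chromosome 9, 77754535 to 77794485, plus strand) did not pass in either cohort. Its lowest, median and highest levels were 101, 118 and 177 RPM in Sham and 89.0, 110 and 141 in PM lungs. In Sham-OVA replicates 1 to 5 it was 121, 89.1, 28.0, 110 and 76.9 RPM, and in PM-OVA replicates 1 to 4 it was 146, 117, 39.6 and 30.7. The 3 shallowest libraries lay far below every saline library, while 5 of the other 6 OVA libraries lay within the range of all saline libraries. Against the Sham libraries alone, Sham-OVA replicates 2 and 5 also lay below the lowest, 101 RPM. On the log2 scale the change was -0.68 ± 0.29 (adjusted p = 0.0509) in Sham and -0.78 ± 0.37 (adjusted p = 0.0781) in PM offspring. Without the 3 shallowest libraries it was -0.32 in Sham and 0.17 in PM offspring, and neither passed. The Sham value passed without Sham-OVA replicate 1 (-0.84) or 4 (-0.81), and the PM value without PM-OVA replicate 1 (-1.14) or 2 (-1.04).

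The balance of the 2 subunits shifted in every OVA library. A ratio within a library does not depend on how that library was scaled, and 0.5 RPM was added to each value before it was taken. The log2 ratio of Gclc to Gclm was 1.05 ± 0.26 (SD, n = 7) in Sham and 2.22 ± 0.17 (n = 5) in Sham-OVA lungs, a difference of 1.18 (exact permutation test, two-sided, p = 0.00126, the smallest that 792 splits allow; adjusted p = 0.0097 over the 16 tests of ratios). It was 0.98 ± 0.27 (n = 7) in PM and 1.90 ± 0.10 (n = 4) in PM-OVA lungs, a difference of 0.92 (exact permutation test, p = 0.00303, the smallest that 330 splits allow; adjusted p = 0.0097). The lowest OVA value, 1.78 in PM-OVA replicate 2, lay above the highest saline value, 1.44 in Sham replicate 1. The 3 shallowest libraries, at 2.08, 1.87 and 2.01, lay among the other OVA libraries for this ratio.

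**Figure D3:**
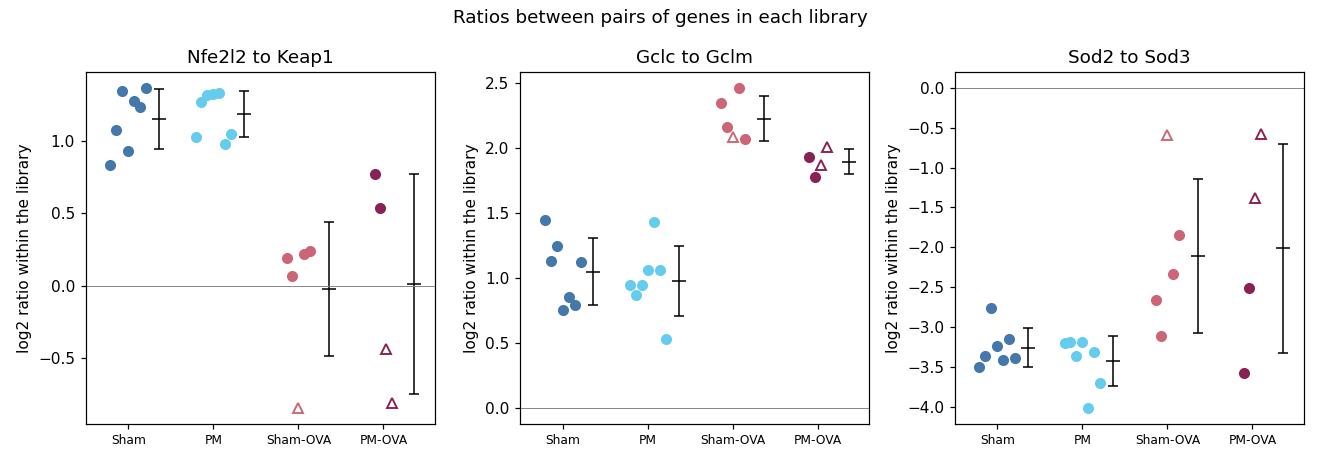
Log2 ratio within each library of Nfe2l2 to Keap1, Gclc to Gclm and Sod2 to Sod3, by group. Points are animals, bars are the mean ± SD and open triangles are the 3 shallowest libraries. The Gclc to Gclm and the Nfe2l2 to Keap1 ratios each separate all 9 OVA libraries, the triangles included, from all 14 saline libraries. The triangles lie among the other OVA libraries for Gclc to Gclm and at the far end for the other ratios.

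The ratio of Nfe2l2 to Keap1 mRNA moved the other way. Its log2 value was 1.15 ± 0.21 (SD, n = 7) in Sham and -0.03 ± 0.46 (n = 5) in Sham-OVA lungs, a difference of -1.17 (exact permutation test, p = 0.00126; adjusted p = 0.0097). In PM lungs it was 1.18 ± 0.16 (n = 7) and in PM-OVA lungs 0.01 ± 0.76 (n = 4), again a difference of -1.17 (exact permutation test, p = 0.00303; adjusted p = 0.0097). Within the OVA libraries the values ran from -0.84, -0.44 and -0.81 in the 3 shallowest to between 0.06 and 0.77 in the other 6. Every OVA value lay below the lowest saline value, 0.83 in Sham replicate 1. How many other gene pairs separate the libraries in this way was not counted.

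Txnrd1 (chromosome 10, 82833951 to 82897712, plus strand) encodes cytosolic thioredoxin reductase, which uses NADPH to keep thioredoxin reduced. Its level was 81.1, 101 and 128 RPM at the lowest, median and highest in Sham and 83.7, 99.4 and 115 in PM lungs. After challenge, Sham-OVA replicates 1 to 5 held 60.6, 45.8, 8.39, 43.2 and 42.4 RPM, and in PM-OVA replicates 1 to 4 it was 84.5, 62.1, 17.4 and 18.0. The Sham groups did not overlap, and PM-OVA replicate 1 just reached the PM range. Txnrd1 fell by 1.58 ± 0.36 on the log2 scale in Sham (adjusted p = 0.00127) and by 1.45 ± 0.37 in PM offspring (adjusted p = 0.00456). Without the 3 shallowest libraries the log2 fold change was -1.10 in Sham (adjusted p = 9.17e-07) and -0.45 in PM offspring (adjusted p = 0.0236).

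Srxn1 (chromosome 2, 152105516 to 152111376, plus strand) encodes sulfiredoxin, which repairs over-oxidised peroxiredoxins. Levels were 25.4, 30.3 and 42.9 RPM at the lowest, median and highest in Sham and 26.0, 32.1 and 44.9 in PM lungs. Sham-OVA replicates 1 to 5 held 19.7, 18.4, 14.9, 18.8 and 18.0 RPM, a narrow range below every Sham library. In PM-OVA replicates 1 to 4 they were 29.4, 28.1, 17.9 and 19.3 RPM, and the first pair lay within the PM range. Its change after OVA was -0.84 ± 0.16 on the log2 scale (adjusted p = 0.000346) in Sham and -0.52 ± 0.19 (adjusted p = 0.0278) in PM offspring. The PM value was near the median of all genes, 0.09 below it, and was not called after median-of-ratios scaling or without the 3 shallowest libraries (-0.21, adjusted p = 0.341). The PM call was also lost without PM replicate 6 (-0.45) or 7 (-0.48), or without PM-OVA replicate 3 (-0.40) or 4 (-0.44).

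Hmox1 (chromosome 8, 75093621 to 75100589, plus strand) encodes haem oxygenase, which breaks haem into biliverdin, carbon monoxide and iron. Its level was 25.6, 40.0 and 45.3 RPM at the lowest, median and highest in Sham and 35.5, 40.3 and 74.4 in PM lungs, the last in PM replicate 5. Sham-OVA replicates 1 to 5 were at 111, 110, 34.2, 103 and 57.8 RPM, and in PM-OVA replicates 1 to 4 it was 74.4, 71.6, 38.8 and 55.6. All Sham-OVA libraries but replicate 3 were above every Sham library. Hmox1 rose by 0.98 ± 0.27 on the log2 scale in Sham offspring (adjusted p = 0.00478), and the value in PM offspring was 0.37 ± 0.23 (adjusted p = 0.166). Without the 3 shallowest libraries the values were 1.27 (adjusted p = 8.03e-06) and 0.70 (adjusted p = 0.0285), so the call in PM offspring depended on those libraries. It also passed there after median-of-ratios scaling (0.74), without PM replicate 5 (0.50) or without PM-OVA replicate 3 (0.57).

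Hmox1 is abundant in macrophages that take up red cells, and interstitial macrophage and red blood cell markers moved with OVA. The 8 interstitial macrophage markers summed to 149.8 to 282.4 RPM in Sham and 1660 to 2532 in Sham-OVA lungs, with 7 of 8 called higher, and to 232.9 to 417.4 in PM and 1472 to 2201 in PM-OVA lungs, with 6 of 8 called higher. Alveolar macrophage markers went both ways. Of 10 listed, 8 were tested, and 3 were called higher and 4 lower in each cohort. Their median log2 fold changes were -0.50 in Sham and -0.52 in PM offspring. The 6 red blood cell markers summed to 575.5 to 2164 RPM in Sham and 1193 to 4837 in Sham-OVA, and to 550.2 to 1342 in PM and 1277 to 2909 in PM-OVA lungs, and of the 4 tested 2 and 3 were called higher. No interstitial macrophage or red blood cell marker was at 0 throughout a group. In Sham-OVA replicates 1 to 5 the interstitial macrophage sums were 2532, 2061, 2185, 2234 and 1660 RPM. The red blood cell sums there were 1193, 1504, 4837, 2672 and 2481. In PM-OVA replicates 1 to 4 they were 1472, 1525, 1924 and 2201 for macrophages and 1277, 1975, 2909 and 2763 for red cells. Sham-OVA replicate 3, with the highest red cell sum, had the lowest Hmox1 of the OVA libraries, 34.2 RPM. Fibroblast markers went the other way, from 2131 to 2783 RPM in Sham to 650 to 1447 in Sham-OVA lungs, and from 2467 to 3503 in PM to 658.7 to 2160 in PM-OVA lungs, with 5 of 8 called lower in each. In whole tissue, fewer cells of a type and less RNA per cell cannot be told apart, and the part of macrophages, red cells and fibroblasts in the values of these 10 genes was not tested.

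Superoxide dismutases turn superoxide into hydrogen peroxide, in the mitochondrion (Sod2), the cytosol (Sod1) and outside the cell (Sod3). Sod2 (chromosome 17, 13006846 to 13040063, plus strand) was 56.9, 64.4 and 84.7 RPM at the lowest, median and highest in Sham and 64.3, 68.8 and 80.3 in PM lungs. In Sham-OVA replicates 1 to 5 it was 136, 107, 128, 142 and 141 RPM, and in PM-OVA replicates 1 to 4 it was 98.0, 130, 140 and 166. All OVA libraries lay above all saline libraries, which was true of 13.2% of genes in Sham and 13.3% in PM offspring. Its log2 fold change was 0.90 in both cohorts, with SE 0.14 in each (adjusted p = 5.18e-05 in Sham and 0.000253 in PM offspring), or 1.86-fold. The 3 shallowest libraries, at 128 to 166 RPM, were not the lowest of the OVA libraries here, where the other 6 ran from 98.0 to 142.

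Sod3 (chromosome 5, 52363791 to 52371418, plus strand) had the highest level of the 10 genes per length of merged exons, 180 ± 15.1 RPM per kb (SD, n = 7) in Sham lungs, followed by Nfe2l2 at 46.1 ± 3.43 and Gclc at 32.8 ± 6.80. Merged exons came to 3738 bases for Sod3 but 10008 for Sod2, so the order of the genes depends on this choice of length. In RPM it ran from 578 to 756 in Sham and from 633 to 1304 in PM lungs. In Sham-OVA replicates 1 to 5 it was 858, 927, 192, 719 and 509, and in PM-OVA replicates 1 to 4 it was 1178, 744, 367 and 248. OVA libraries lay both above and below the saline range, the 3 shallowest being the lowest. The log2 fold change was -0.26 (95% interval -0.91 to 0.40) in Sham and -0.52 (-1.30 to 0.27) in PM offspring, and the sign turned without the 3 shallowest libraries (0.13 and 0.30). In Sham offspring it also turned under median-of-ratios scaling (0.11). Leaving out PM-OVA replicate 1 made the PM value pass (-0.90, adjusted p = 0.0186).

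The log2 ratio of Sod2 to Sod3 was -3.26 ± 0.25 (SD, n = 7) in Sham and -2.11 ± 0.97 (n = 5) in Sham-OVA lungs (difference 1.15, exact permutation test, p = 0.00253, adjusted p = 0.0097). In PM lungs it was -3.42 ± 0.32 (n = 7) and in PM-OVA lungs -2.01 ± 1.31 (n = 4; difference 1.41, exact permutation test, p = 0.0182, adjusted p = 0.0416). Leaving out 1 library, the PM difference ran from 0.93 without PM-OVA replicate 4 to 1.93 without PM-OVA replicate 1, and 10 of 11 such tests, each with fewer splits and so a larger smallest p, lost the call (adjusted p 0.019 to 0.123). The ratio of Sod1 to Sod3 differed by 0.79 and 1.48 and passed in neither cohort (exact permutation test, adjusted p = 0.285 and 0.158).

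Gpx2 (chromosome 12, 76792333 to 76795554, minus strand) encodes a glutathione peroxidase best known from gut epithelium and is often read as an NRF2 target in airway epithelium. It lay near the limit of detection in lung, with 1 to 14 reads per library and 0.0587 to 1.06 RPM. A count of 3 reads corresponds to 0.173 RPM in Sham replicate 1, but to 0.932 in Sham-OVA replicate 3. In PM-OVA replicates 3 and 4 it corresponds to 0.398 and 0.545 RPM. A floor of this kind covers counting error only. Group means were 0.355 ± 0.199 RPM (SD) in Sham lungs and 0.454 ± 0.27 in Sham-OVA lungs, 0.317 ± 0.187 in PM lungs and 0.698 ± 0.322 in PM-OVA lungs, and the groups overlapped. The log2 fold change was 0.15 (adjusted p = 0.539) in Sham and 0.55 (adjusted p = 0.0547) in PM offspring, so a difference was not detectable at this depth in either. After median-of-ratios scaling the PM value was 0.74 (adjusted p = 0.0193), and it passed without PM replicate 2 (0.61) or 7 (0.60) or PM-OVA replicate 1 (0.70).

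**Figure D4:**
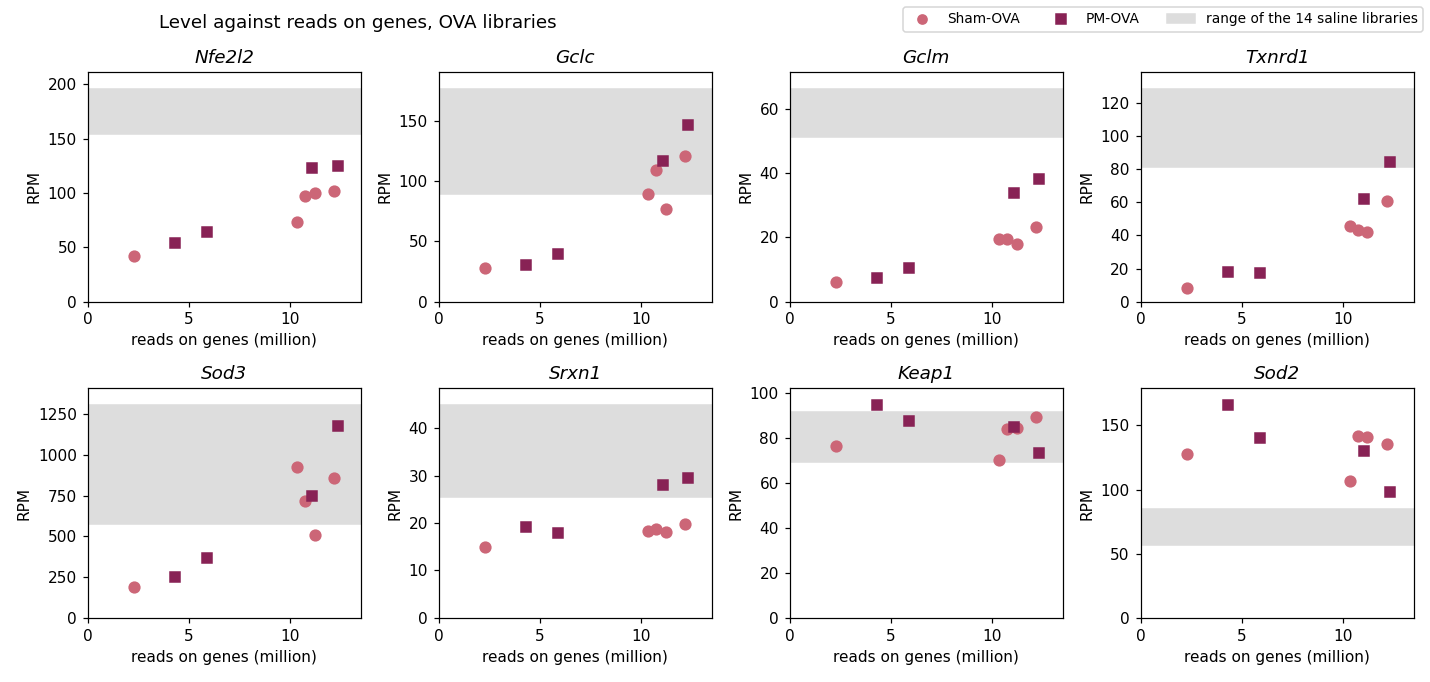
RPM of 8 genes against reads on genes (in units of 1000000) in the 9 OVA libraries (circles Sham-OVA, squares PM-OVA). The grey band is the range of the 14 saline libraries. Nfe2l2, Gclc, Gclm, Txnrd1 and Sod3 are lowest in the 3 shallowest libraries, while Keap1 and Sod2 are not.

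The plot of level against reads on genes shows how far these libraries set the size of the changes. In the 3 shallowest libraries Gclm was 6.21 to 10.5 RPM and in the other 6 OVA libraries 18.0 to 38.0, against 51.3 to 66.1 in the 14 saline libraries. Nfe2l2 was 42.3 to 64.4 RPM in the 3 shallowest, 73.1 to 125 in the other 6 and 154 to 196 in the saline libraries. The direction therefore held in both sets of OVA libraries for these genes. Without the 3, Nfe2l2 fell by 0.92 in Sham (adjusted p = 1.25e-06) and by 0.52 in PM offspring (adjusted p = 0.00283), and Gclm fell by 1.53 (adjusted p = 3.25e-09) and by 0.70 (adjusted p = 0.000688). The changes of Nfe2l2, Gclm and Txnrd1 in PM offspring were thus less than 1 log2 unit without them. The share of mapped reads that fell on genes was 71.4% to 78.6% in these 3 and 77.8% to 85.7% in the other 6 OVA libraries, and the part of depth in the lower values was not tested.

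Maternal exposure alone gave no call. Between PM and Sham offspring the log2 fold changes of the 10 genes ran from -0.07 to 0.23, and limma called 0 members and 0% of all genes. No member reached an unadjusted p under 0.05, where 4.35% of all genes did, and neither DESeq2 nor edgeR called a member. Hmox1 was at 0.23 (95% interval -0.11 to 0.57), Sod3 at 0.18 (-0.13 to 0.49) and Nfe2l2 at 0.03 (-0.12 to 0.18). The intervals of Nfe2l2, Keap1 and Gclm lay within 0.182 of 0, while those of the other 7 were wider. Leaving out PM replicate 5, the library with the highest Hmox1 and Sod3 of its group, brought Hmox1 to 0.11 and Sod3 to 0.05. That library also had the highest smooth muscle marker sum of the PM group, 1713 RPM, and the lowest capillary endothelial sum, 1863 RPM.

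Between PM-OVA and Sham-OVA offspring the log2 fold changes ran from -0.37 (Hmox1, 95% interval -1.21 to 0.47) to 0.36 (Srxn1, -0.12 to 0.84). limma called 0 members and 0% of all genes, no member reached an unadjusted p under 0.05, where 1.86% of all genes did, and DESeq2 and edgeR called no member. Under 0.05 unadjusted were 4 members without the 3 shallowest libraries, 2 with array weights, 1 in DESeq2 and 1 without Sham-OVA replicate 3, and 0 passed the adjustment in any of these. The intervals were wide, reaching from -1.09 to 1.41 for Gclm, and those of Gclc, Gclm, Txnrd1 and Sod3 all reached past 1 log2 unit in both directions. The log2 ratio of Gclc to Gclm was lower in PM-OVA than in Sham-OVA lungs by 0.33 (exact permutation test, p = 0.0159, adjusted p = 0.0416). Leaving out 1 library, this difference ran from -0.37 to -0.27, and each of the 9 tests, which have fewer splits and so a larger smallest p, lost the call (adjusted p 0.0654 to 0.123). The ranges of the PM-OVA libraries, 1.78 to 2.01, and the Sham-OVA libraries, 2.07 to 2.46, did not overlap.

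The response to OVA was compared between the cohorts by the interaction of maternal exposure and challenge. It ran from -0.61 ± 0.37 (SE; Hmox1, adjusted p = 1 from limma) to 0.39 ± 0.31 (Gpx2), and limma called 0 members and 0% of all genes. No member reached an unadjusted p under 0.05, where 5.08% of all genes did, and DESeq2 and edgeR called no member, with 1 each under 0.05 unadjusted. The call of Hmox1 in Sham and not in PM offspring is not a shown difference between them. Without the 3 shallowest libraries the interaction of Gclm was 0.82 ± 0.16 (adjusted p = 0.0142), a smaller fall in PM offspring, and with limma's array weights it was -0.79 ± 0.24 (adjusted p = 0.0174), the opposite sign. The array weights gave PM-OVA replicates 1 and 2, the deeper pair, 0.07 and 0.15, and Sham-OVA replicate 3 0.06. A difference between the cohorts in Gclm therefore had a sign that depended on which libraries carried weight.

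**Figure D5:**
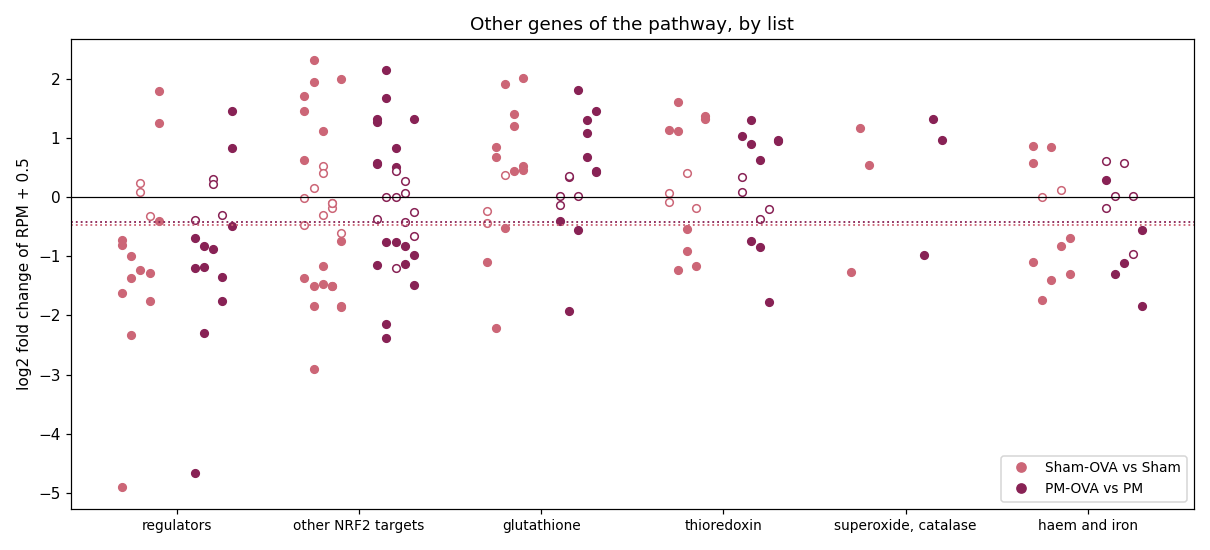
Log2 fold change of RPM + 0.5 after OVA for each other gene of the pathway, by list, in Sham (light red) and PM (dark red) offspring. Filled points passed an adjusted p of 0.05 and dotted lines are the medians of all genes tested. Regulators lie mostly below 0, and Bach1 is the lowest point in both cohorts.

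The other genes of the pathway were counted in 6 lists, to be read against the shares of all genes called, 20.6% higher and 47.5% lower in Sham and 20.1% and 45.2% in PM offspring. Of 16 regulators of NRF2, 11 fell and 2 rose in Sham offspring, and 10 fell and 2 rose in PM offspring, with medians of -0.90 and -0.75 against -0.48 and -0.43 for all genes. After median-of-ratios scaling 9 fell and 3 rose in Sham, and 8 fell and 4 rose in PM offspring. Bach1, which represses Hmox1 and competes with NRF2 for the ARE, was 32.8 to 94.3 RPM in Sham and 54.9 to 95.01 in PM lungs. It was 2.64, 1.35, 0.932, 1.59 and 1.90 RPM in Sham-OVA replicates 1 to 5 and 19.6, 3.25, 1.46 and 0 in PM-OVA replicates 1 to 4, the last with 0 reads. Bach1 fell by 4.90 ± 0.25 on the log2 scale in Sham (adjusted p = 3.21e-09) and by 4.67 ± 0.69 in PM offspring (adjusted p = 0.000173). The related repressor Bach2 (-2.33 and -2.29) and Mafk, a small MAF partner (-1.76 in both), also fell. Without the 3 shallowest libraries Bach1, Bach2 and Mafk were at -4.76, -1.81 and -1.52 in Sham offspring. In PM offspring they were then at -3.11, -1.58 and -1.17, a smaller fall, and each was still called in both cohorts. Syvn1, an ubiquitin ligase of the endoplasmic reticulum that can target NRF2, rose by 1.80 and 1.44, and Dpp3, a peptidase that binds KEAP1, rose by 1.26 and 0.83.

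Of 28 other NRF2 targets, 7 rose and 11 fell in Sham offspring, and 8 rose and 9 fell in PM offspring. Those that rose included Tkt (2.31 and 2.14 on the log2 scale) and Me1 (1.94 and 1.67), enzymes that feed NADPH or sugar phosphates, and Slc7a11 (1.99 and 1.32), the cystine importer that supplies glutathione synthesis. Aox1 (-2.90 and -2.38), an aldehyde oxidase, Fth1 (-1.85 and -2.15), the iron-storing ferritin heavy chain, and Gstp1 (-1.85 and -1.49), a glutathione transferase, fell in both. In the deposited values Gstp1 was low throughout and near the limit of detection after OVA. Its means were 2.11 RPM in Sham and 0.205 in Sham-OVA, and 1.69 in PM and 0.375 in PM-OVA lungs. The classical target Nqo1, named here after its values were seen, had a log2 fold change of -1.51 ± 0.40 in Sham (adjusted p = 0.0039) and -1.14 ± 0.23 in PM offspring (adjusted p = 0.000973). Median-of-ratios scaling gave 10 higher and 11 lower in Sham and 11 higher and 6 lower in PM offspring, so the list moved in both directions under either scaling and the majority turned in PM offspring. Without the 3 shallowest libraries 10 were higher and 3 lower in PM offspring, and Fth1 (-0.42, adjusted p = 0.0812 from limma) and Gstp1 (-0.93, adjusted p = 0.081) no longer passed there.

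Of 15 glutathione genes outside the members, 9 rose and 3 fell in Sham offspring, and 6 rose and 3 fell in PM offspring. After median-of-ratios scaling 10 were higher and 2 lower in Sham, and 8 were higher and 1 lower in PM offspring. Glrx5 (1.90 and 1.81), Glrx (2.01 and 1.45), both glutaredoxins, and Gpx1 (1.40 and 1.30), the main cytosolic glutathione peroxidase, rose in both, while Glrx3 (-2.21 and -1.93) and Gpx8 (-0.53 and -0.56) fell. Glrx3 was at low levels, with means of 4.57 RPM in Sham and 0.571 in Sham-OVA, and 4.025 in PM and 0.8115 in PM-OVA lungs. Of 13 thioredoxin genes, 5 rose and 4 fell in Sham and 6 rose and 3 fell in PM offspring, and after median-of-ratios scaling 6 were higher and 3 lower in Sham and 8 higher and 1 lower in PM offspring. Mitochondrial Txnrd2 (1.60 and 1.29) and Txn2 (1.37 and 0.96), and Prdx4 (1.33 and 0.94), the peroxiredoxin of the endoplasmic reticulum, rose, whereas cytosolic Txnrd1 was among the genes that fell. Sesn3 (-1.16 and -1.77), Prdx6 (-1.23 and -0.75) and Prdx2 (-0.91 and -0.85) fell. Prdx2 was also low in the deposited values, with means of 1.57 RPM in Sham and 0.612 in Sham-OVA, and 1.77 in PM and 0.934 in PM-OVA lungs. Whether reads shared with related sequences were left out for such genes is not given in the sources used here. Median-of-ratios scaling kept these named genes called in Sham offspring except Gpx8, and in PM offspring except Gpx8, Prdx6 and Prdx2. The same genes lost their calls in the same cohorts without the 3 shallowest libraries.

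Ccs (1.17 and 1.32), the copper chaperone of Sod1, rose and catalase, Cat (-1.27 and -0.99), fell in both cohorts, with or without the 3 shallowest libraries. Sod1 also passed (0.53 and 0.97), but the 3 shallowest libraries held it at 76.4 to 94.2 RPM, the highest of all, against 22.0 to 55.9 in the other 6 OVA and 24.6 to 45.0 in the 14 saline libraries. Without those 3 its values were 0.35 (adjusted p = 0.0805 from limma) and 0.24 (adjusted p = 0.355), and neither passed. Of 11 haem and iron genes, 3 rose and 6 fell in Sham and 1 rose and 4 fell in PM offspring. After median-of-ratios scaling 4 were higher and 4 lower in Sham and 4 higher and 3 lower in PM offspring, so the majority turned there. Hmox2 (0.57 and 0.29) rose, and the iron exporter Slc40a1 (-1.29 and -1.84) and the scavengers haptoglobin, Hp (-1.73 and -1.30), and haemopexin, Hpx (-1.41 and -1.11), fell. In the maternal comparisons none of the 96 genes of these lists and the members passed the adjustment. Sesn3 had the smallest p between PM and Sham (log2 fold change 0.29, adjusted p = 0.898 from limma) and Gpx4 the smallest in the interaction (1.11, adjusted p = 0.643) and between PM-OVA and Sham-OVA (0.70, adjusted p = 1).

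The genes whose levels over all 23 libraries followed a member most closely differed from member to member. For Nfe2l2 they were Rhot1, Pls3 and Usp33, each with Pearson's r = 0.986 on the log2 scale. For Hmox1 they were Surf4 (r = 0.926), Hc and Serpina3n (both 0.918), and for Sod3 they were G6pdx (0.940), Pcolce (0.938) and Ncapd2 (0.935). For Gpx2, at its low level, they were Fhad1 (0.792), Fbf1 (0.789) and Ubxn11 (0.787). These correlations are descriptions, since the points share the OVA groups and the 3 shallow libraries.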

How the data were processed

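The authors sequenced polyA RNA from lung homogenates as single-end reads, trimmed them with Trimmomatic, aligned them with Bowtie2 to GRCm38 and quantified genes in SeqMonk. The deposited table is named RPKM, but its values are whole multiples of 1 read per library, the same for genes of every length, so the deposited values were treated as RPM. Reads were recovered in this way for at least 99.99% of values per library (tolerance 0.01). How reads that fit several places in the genome were counted is not given in the sources used here. The globin genes Hba-a1 and Hba-a2 had Sham means of 0.042 and 0.074 RPM, beside 919.6 for Hbb-bs. A low value may therefore not be a low level of the mRNA, and this was not tested. The members and lists were chosen with earlier results of these data known.

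Genes were kept if 4 or more of the 23 libraries held 0.5 RPM or more (16795). limma 3.58.1 (R 4.3.3) with a trend was fitted to log2(RPM + 0.5), one fit per pair of groups and all groups for the interaction, so fold changes of low genes are understated. p-values were adjusted by Benjamini-Hochberg over all genes. DESeq2 1.42.0 and edgeR 4.0.16 were run on recovered reads as alternatives. Tests were checked on simulated data in which most genes were unchanged. In the OVA comparisons most genes were called, so that check does not cover them. Ratios were compared by two-sided exact permutation tests. Per-length levels used merged exons of the gene annotation. No 2 libraries of a group agreed within sampling noise. Members named for the maternal comparisons were those of highest or lowest change, and list genes were the 3 at most with the largest mean change in each direction among those called in both cohorts. Length or GC trends, 3 left-out shallow libraries, each left-out library and replicate blocks were among the alternatives. The trends, the shallow libraries and a block by library name were chosen after seeing the data.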

Additional observations from a re-analysis of the deposited data

Results flagged for a closer look

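Of 40 sets of values (10 genes in 4 groups), 4 held a sample whose gap to its nearest neighbour was too large for the group by Dixon's criterion, where chance gives about 1 in 20. Keap1 in PM replicate 6 was 88.72 RPM, against 79.22 for the next and 75.24 for the lowest of its group. Gclc in Sham replicate 1, the library with Y-linked reads, was 176.6 RPM, against 132.5 for the next. Sod3 in PM replicate 5 was 1304 RPM, against 863.6 for the next. Gpx2 in Sham-OVA replicate 3, the shallowest library, was 0.9321 RPM, which rests on 3 reads.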

How the results depend on the processing

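Across the alternatives of scaling, filter, pseudocount, tool and left-out libraries, Nfe2l2, Gclm and Txnrd1 stayed lower and Sod2 higher, past the threshold, in both cohorts, except in PM offspring with a block by library name (given last). Settings are named for OVA against saline offspring unless stated. At the stricter threshold of the study limma called 0 members in each cohort, DESeq2 3 in Sham and 1 in PM offspring, and edgeR 0. Members called lower numbered 5 in Sham offspring with a pseudocount of 1 and 6 in PM offspring with array weights. Members called higher in Sham offspring numbered 4 after quantile normalisation. In PM offspring they numbered 4 after quantile normalisation, median-of-ratios scaling, DESeq2 or edgeR, 2 with all 4 groups in one fit, 2 with the trend of transcript length and GC removed, 2 without the 3 shallowest libraries (both chosen after seeing the data), and 1 to 2 when 1 library was left out. Sod3 in Sham offspring turned to 0.11 after median-of-ratios scaling, 0.23 in DESeq2, 0.31 in edgeR, 0.10 with array weights, 0.02 with length and GC removed and 0.13 without the 3 shallowest libraries, and the last also brought Gpx2 to 0.00 in Sham offspring and Gclc to 0.17 and Sod3 to 0.30 in PM offspring. Leaving out 1 library in turn, Sham offspring values ran from 0.00 to 0.08 for Keap1, -0.44 to 0.13 for Sod3 and 0.00 to 0.24 for Gpx2. Between PM and Sham, Nfe2l2 was -0.02 after quantile normalisation. In the interaction, array weights called 5 members (Hmox1, Gclc, Gclm, Txnrd1 and Sod3, all negative) and turned Srxn1 to -0.04, and omitting the 3 shallowest libraries called 1 (Gclm, positive), with 4616 and 721 genes called against 0, and the cause was not tested. Ratios that passed nowhere changed sign when 1 library was left out: Nfe2l2 to Keap1 ran from -0.02 to 0.07 between PM and Sham and from -0.21 to 0.31 between PM-OVA and Sham-OVA, Gclc to Gclm from -0.15 to 0.00 between PM and Sham, and between PM-OVA and Sham-OVA Sod2 to Sod3 ran from -0.38 to 0.62 and Sod1 to Sod3 from -0.37 to 1.07.

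The numbers in the sample titles and those in the library names differ for most OVA libraries, and neither is said to mark a shared dam or day. Same-numbered libraries by title passed a correlation of 0.1 in 1 of 5 pairs in Sham and 0 of 4 in PM offspring, 1 of 7 between PM and Sham, and 3 of 4 between PM-OVA and Sham-OVA, where the other was -0.311. By library name they did so in 0 of 5, 1 of 3 and, between PM-OVA and Sham-OVA, 1 of 3 pairs. In none did every pair pass, so the numbers were not taken to pair the samples. With the title number as a block, 5 members were lower in Sham offspring (Gclc joined, -0.73) and 3 in PM offspring (Srxn1 was -0.34, adjusted p = 0.293), and limma called 10025 and 7982 genes in place of 11431 and 10968. With the library name number as a block (chosen after seeing the data), which leaves PM-OVA replicate 4 unpaired, 9471 and 3201 genes were called, with 2 members higher and 4 lower in Sham and 0 in PM offspring, where Nfe2l2 was -0.90, Gclm -1.32, Txnrd1 -1.26 and Sod2 0.75 (adjusted p 0.0586 to 0.0969). Keap1 then turned to -0.01 in Sham offspring and Hmox1 to 0.01 between PM-OVA and Sham-OVA. With 4 PM-OVA libraries of unequal depth, intervals of the maternal comparisons after OVA stay wide, which limits what can be detected.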
